A study of Homo sapiens with 20 samples.

Results

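TWIST1 and 6 other genes of the epithelial-mesenchymal transition, SNAI1, SNAI2, ZEB1, ZEB2, VIM and FN1, were followed in SUM44 cells given estradiol. They are 7 of 11963 genes measured, and were read on 14 of 19064 probe sets that carry a single gene symbol in the platform annotation. They were taken by gene symbol from a list of names, which was chosen with earlier results of these data known. Each is described on its probe set of highest mean over the 20 arrays, and the others were checked: FN1 had 6 probe sets, ZEB1 had 3, and each of the other genes had 1.

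SUM44 is an established human cell line of invasive lobular breast carcinoma that expresses the estrogen receptor. All cells were first kept without hormone for 3 days in IMEM containing serum stripped with charcoal. The series text gives 2% serum and the sample text 10%, which was not settled. The 5 groups of 4 arrays are cells at 0 h before any addition (baseline), cells given 1 nM estradiol (E2) for 3 h or 24 h, and cells given the ethanol vehicle (0.01%) for 3 h or 24 h. The series text calls the replicates biological. The arrays titled E2 at 24 h carry "baseline" in their treatment field, against their own titles and descriptions, and the titles were followed. All results come from a single cell line.

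TWIST1 is a basic helix-loop-helix transcription factor that binds E-boxes as a dimer with E proteins. SNAI1 and SNAI2 (snail and slug) and ZEB1 and ZEB2 are zinc finger factors that bind E-boxes and repress epithelial genes, CDH1 (E-cadherin) among them. VIM encodes vimentin, the intermediate filament protein of mesenchymal cells, and FN1 encodes fibronectin of the extracellular matrix; both are commonly used as markers of the transition. Lobular carcinomas are known for the loss of E-cadherin function, usually through CDH1 mutation, while most keep a luminal expression pattern.

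The 7 genes did not move as a block. With E2 at 3 h, TWIST1 and FN1 fell and SNAI1 rose, and the other 4 did not pass the test. With E2 at 24 h, TWIST1 and FN1 fell and VIM rose. ZEB2 was also called lower, but near background and with overlapping arrays, and 3 did not pass. For comparison, 13.5% of all genes were called higher and 17.6% lower at 3 h, and 21.5% higher and 24.2% lower at 24 h, so a call alone sets a gene little apart in these data. All calls are from limma with Benjamini-Hochberg adjustment over the 11963 genes at a threshold of 0.05. Values are log2 expression, errors after ± are standard errors of the fit unless SD is named, and differences are E2 minus vehicle.

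**Figure D1:**
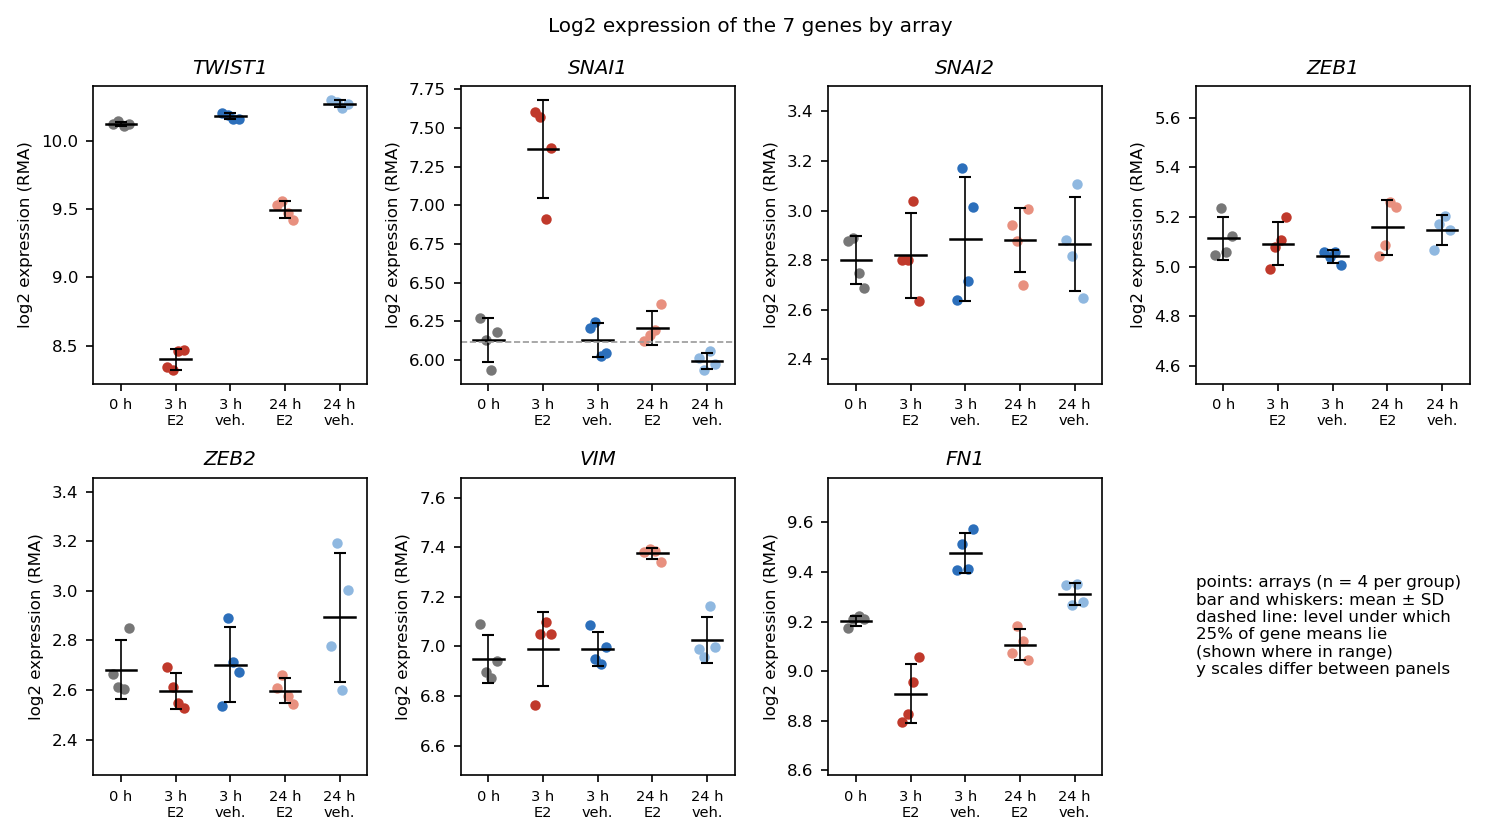
Log2 expression of the 7 genes on every array, by group along the horizontal axis (4 arrays per group; bars and whiskers are mean ± SD; the vertical scale differs between panels). TWIST1 with E2 at 3 h lay between 8.32 and 8.47, and with vehicle at 3 h between 10.16 and 10.20; the SNAI1 arrays with E2 at 3 h lay between 6.91 and 7.60, above all its other arrays.

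Near-background levels were judged against a log2 level of 6.11, under which 25% of gene means lie. SNAI2, ZEB1 and ZEB2 lay below it in all 5 groups. A second level, 6.97, is the 95th percentile of 60 probe sets of 34 genes restricted to other tissues, and SNAI1 lay below it in 4 of 5 groups, the group given E2 at 3 h being the exception. VIM lay just below it in 1 group, the baseline. It lay barely above it with E2 at 3 h (6.991), with vehicle at 3 h (6.991) and with vehicle at 24 h (7.026). TWIST1 and the main FN1 probe set were above both levels in every group. Changes are compressed close to background. The sizes for SNAI1 and VIM, and above all for SNAI2, ZEB1 and ZEB2, are therefore less certain than those for TWIST1 and FN1.

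In the marker check, 0 of 10 luminal epithelial markers lay below the 6.11 level, and their mean level was 12.8 at baseline, 12.5 with E2 against 12.8 with vehicle at 3 h, and 13.0 with E2 against 12.8 with vehicle at 24 h, without overlap of E2 and vehicle arrays at either time. The part of this shift in the results was not tested. Below it were 6 of 10 fibroblast, 4 of 7 endothelial, 4 of 5 immune and 5 of 6 myoepithelial markers. The mean of the fibroblast list was 5.91 to 6.0 with E2 against 5.92 to 5.98 with vehicle at 3 h, and 5.83 to 5.94 with E2 against 5.90 to 5.94 with vehicle at 24 h. Of the fibroblast markers, SPARC and COL1A1 were well above it, with means of 10.6 and 8.49. Arrays of the same group correlated at 0.998 to 0.999 and arrays of different groups at 0.99 to 0.998; no pair held the same values. The difference between 3' and 5' ACTB probe sets, a sign of RNA quality, was 0.39 with E2 and 0.32 with vehicle at 3 h, without overlap of the arrays, and 0.38 with E2 and 0.40 with vehicle at 24 h, with overlap. For GAPDH it ran the other way at 3 h, at -0.138 with E2 (-0.153 to -0.129) and -0.116 with vehicle (-0.122 to -0.104), again without overlap. For ACTB the baseline arrays stood at 0.466 (0.456 to 0.479), above the range of every other group. The part of these differences in the results at 3 h, or in the comparisons against baseline, was not tested.

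TWIST1 had the largest log2 difference in size between E2 and vehicle of the 7 genes at both times. With E2 at 3 h it read 8.35, 8.32, 8.46 and 8.47, and with vehicle at 3 h 10.20, 10.19, 10.16 and 10.16. All 4 E2 arrays lay far below the 4 vehicle arrays. The difference was -1.78 ± 0.04 (95% interval -1.85 to -1.70), a 3.43-fold lower signal (limma, Benjamini-Hochberg adjusted p = 3.7e-18). In bulk RNA such as this, fewer cells that express a gene and less of its RNA per cell cannot be told apart.

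At 24 h the TWIST1 arrays with E2 read 9.53, 9.56, 9.47 and 9.42, and those with vehicle 10.30, 10.28, 10.24 and 10.27. The groups again did not overlap, but they stood closer together. The difference was -0.78 ± 0.04 (95% interval -0.85 to -0.70), which is 1.71-fold (limma, adjusted p = 6.7e-13) and 43.7% of the effect at 3 h on the log2 scale. The effect at 24 h minus that at 3 h was 1.00 ± 0.05 (95% interval 0.90 to 1.11, limma adjusted p = 8.9e-12). Such a difference between times was called positive for 16.5% of all genes and negative for 17.8%.

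The baseline arrays of TWIST1 read 10.12, 10.14, 10.11 and 10.12, so that the E2 groups also lay below the cells before any addition, by -1.72 at 3 h and -0.63 at 24 h. Vehicle at 24 h was higher than baseline by 0.15 ± 0.04 (limma adjusted p = 0.0079). Vehicle at 3 h was 0.06 ± 0.04 above baseline, which did not pass (adjusted p = 0.32) although all vehicle arrays were above all baseline arrays. Ordered by mean, the groups ran vehicle at 24 h, vehicle at 3 h, baseline, E2 at 24 h and E2 at 3 h, and no neighbours in that order shared any part of their range. Over all genes, 9.95% were called higher and 10.1% lower in vehicle at 3 h against baseline, and 7.55% higher and 4.37% lower at 24 h. Among the 7 genes, FN1 at 3 h and TWIST1 at 24 h were called higher in vehicle, and none was called lower.

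**Figure D2:**
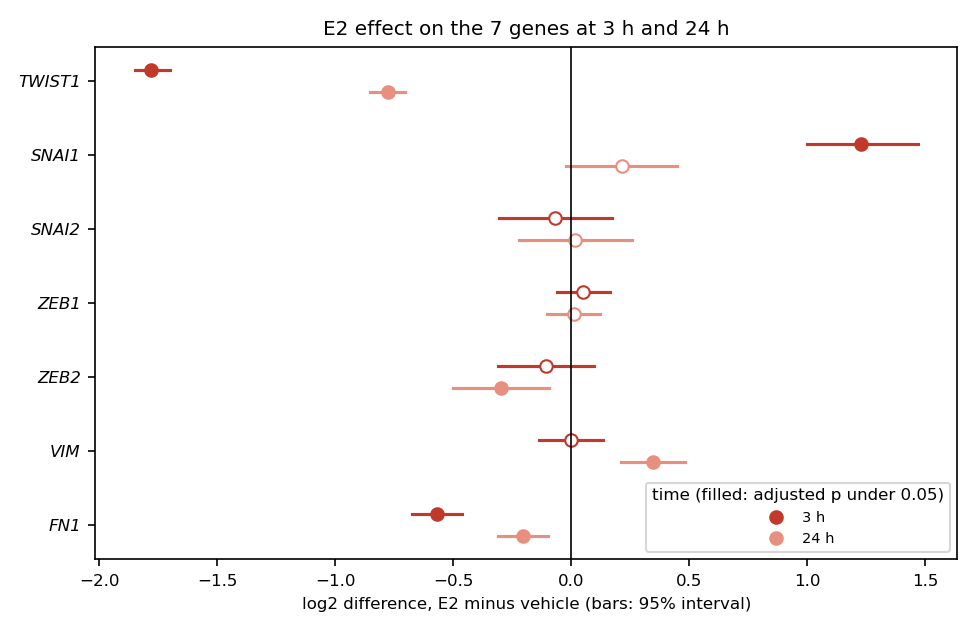
E2 minus vehicle on the log2 scale for the 7 genes at 3 h and 24 h, with 95% intervals from the limma fit (4 arrays per group). TWIST1 lies at -1.78 at 3 h and -0.78 at 24 h, while SNAI1 lies at 1.23 at 3 h and 0.21 at 24 h, the interval at 24 h reaching across 0.

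SNAI1 moved the other way and was close to its vehicle level by 24 h. Its arrays given E2 for 3 h read 7.60, 7.58, 6.91 and 7.37, and with vehicle at 3 h 6.20, 6.25, 6.03 and 6.04. Every E2 array was above every vehicle array, with array C the lowest of the 4. The rise was 1.23 ± 0.11 (95% interval 1.00 to 1.47), or 2.35-fold (limma, adjusted p = 2.6e-08). With vehicle the gene lay close to the 6.11 level, so the size of this fold is uncertain.

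At 24 h SNAI1 read 6.12, 6.16, 6.20 and 6.36 with E2, and 6.01, 5.94, 6.06 and 5.97 with vehicle. The arrays did not overlap, but the difference of 0.21 ± 0.11 (95% interval -0.02 to 0.45) did not pass in the fit over all groups (limma, adjusted p = 0.13). It passed when those 2 groups were fitted alone (adjusted p = 0.011). The effect at 24 h minus that at 3 h was -1.02 ± 0.16 (limma, adjusted p = 3.7e-05). Apart from E2 at 3 h, each group's range overlapped the next in the order of means: E2 at 24 h, vehicle at 3 h, baseline and vehicle at 24 h. The baseline arrays read 6.27, 6.13, 5.93 and 6.18, and vehicle minus baseline passed neither at 3 h (0.00258 ± 0.11, limma adjusted p = 0.99) nor at 24 h (-0.13 ± 0.11, adjusted p = 0.49), with overlapping arrays both times.

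SNAI2, the paralog of SNAI1, gave no call in any comparison. Its group means ran from 2.80 to 2.89, and the ranges of all neighbouring groups overlapped. E2 minus vehicle was -0.07 ± 0.11 at 3 h (95% interval -0.30 to 0.17, limma adjusted p = 0.74) and 0.02 ± 0.11 at 24 h (95% interval -0.22 to 0.26, adjusted p = 0.92). At this signal level the lack of a call does not show that the gene was unchanged.

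ZEB2 was called lower with E2 at 24 h, at a signal near background. With E2 at 24 h its arrays read 2.61, 2.66, 2.57 and 2.55, and with vehicle at 24 h 2.78, 3.19, 2.60 and 3.01. The groups overlapped, since vehicle array C lay inside the E2 range. The difference of -0.30 ± 0.10 passed (limma, adjusted p = 0.017). It did not pass without vehicle array B (-0.20, adjusted p = 0.077), without vehicle array D (-0.26, adjusted p = 0.055) or when those 2 groups were fitted alone (adjusted p = 0.053). At 3 h the difference was -0.11 ± 0.10 (adjusted p = 0.48). Both groups lay far below the near-background level.

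ZEB1 gave no call on its main probe set, with 0.05 ± 0.05 at 3 h (limma, adjusted p = 0.54) and 0.01 ± 0.05 at 24 h (adjusted p = 0.90). Its group means there ran from 5.04 to 5.16, and all neighbouring groups overlapped. Of its 3 probe sets, all near background, the second did give a call at 24 h. It read 4.33, 4.43, 4.59 and 4.15 with E2 and 3.88, 3.83, 4.04 and 4.30 with vehicle, overlapping ranges with a difference of 0.36 (adjusted p = 0.0082 in a limma fit of all 19064 probe sets). The probe sets therefore disagree on ZEB1, and the mean over them passed at 24 h (0.16, adjusted p = 0.035).

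VIM rose with E2 at 24 h and showed no difference of means at 3 h. At 24 h it read 7.38, 7.39, 7.39 and 7.34 with E2, and 6.99, 6.96, 7.17 and 6.996 with vehicle. The E2 arrays all lay above the vehicle arrays and close together. The rise was 0.35 ± 0.07 (95% interval 0.21 to 0.48), or 1.27-fold (limma, adjusted p = 0.00018).

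At 3 h VIM read 6.76, 7.05, 7.10 and 7.05 with E2 and 7.09, 6.95, 6.93 and 6.998 with vehicle, with array A of the E2 group standing apart. The difference was 7.45e-05 ± 0.07 (95% interval -0.14 to 0.14, limma adjusted p = 1). The effect at 24 h minus that at 3 h was 0.35 ± 0.09 (adjusted p = 0.0056). Baseline arrays read 7.09, 6.90, 6.87 and 6.94, and vehicle was above them by 0.04 ± 0.07 at 3 h and 0.08 ± 0.07 at 24 h, neither of which passed. Ordered by mean, E2 at 24 h stood clear of the rest, and the other groups overlapped with their neighbours.

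FN1 fell at both times, more at 3 h. With E2 at 3 h it read 8.79, 8.83, 8.96 and 9.06, and with vehicle at 3 h 9.41, 9.51, 9.41 and 9.57. The 2 sets of arrays did not overlap. The difference was -0.57 ± 0.05 (95% interval -0.67 to -0.46), or 1.48-fold (limma, adjusted p = 2.2e-08).

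Part of the FN1 difference at 3 h lay in the vehicle group. Baseline arrays read 9.17, 9.21, 9.22 and 9.21, and vehicle at 3 h was above baseline by 0.27 ± 0.05 (limma, adjusted p = 0.00059), while E2 at 3 h was below it by -0.29. All 4 E2 arrays at 3 h lay under all 4 baseline arrays, so the decrease was present against both references. For TWIST1, vehicle at 3 h was 0.06 above baseline and E2 at 3 h differed from baseline by -1.72.

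At 24 h FN1 read 9.07, 9.18, 9.12 and 9.05 with E2, and 9.35, 9.27, 9.35 and 9.28 with vehicle, again without overlap. The difference was -0.205 ± 0.051 (95% interval -0.31 to -0.10), or 1.15-fold (limma, adjusted p = 0.0026), and the effect at 24 h minus that at 3 h was 0.36 ± 0.07 (adjusted p = 0.00048). Against baseline, vehicle at 24 h was 0.11 ± 0.05 higher, which did not pass (adjusted p = 0.18), and the E2 arrays at 24 h overlapped the baseline arrays.

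Of the 6 FN1 probe sets, 4 were called lower with E2 at both times. The other 3 of these differed by -0.57, -0.63 and -0.60 at 3 h and by -0.22, -0.27 and -0.30 at 24 h. The main probe set and 2 of those 3 carry a name ending, _x_at, that marks possible cross-hybridisation. The third, which differed by -0.60 at 3 h and -0.30 at 24 h, ends in _s_at, which marks probes shared by several transcripts. None of the 4 thus has a name free of such a mark. The last 2 FN1 probe sets had group means of 5.95 to 6.10 and 3.33 to 3.46, all near background, and gave no call in either E2 comparison. The only probe sets of VIM and ZEB2 and the main one of ZEB1 also end in _s_at.

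**Figure D3:**
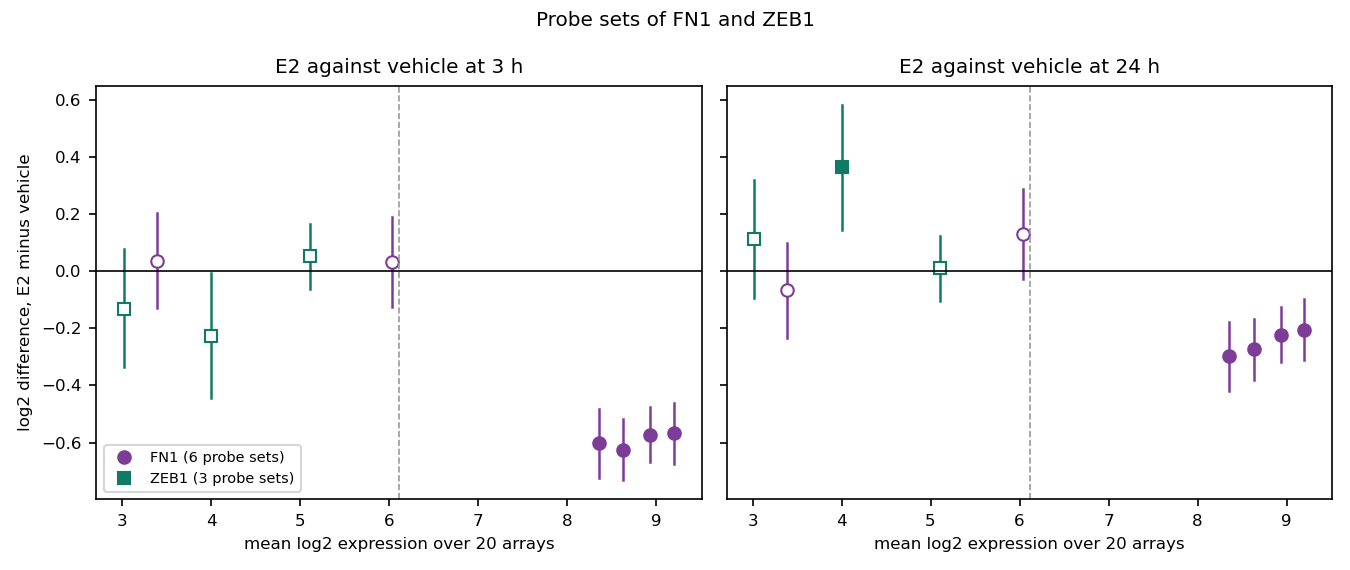
E2 minus vehicle on the log2 scale at 3 h and 24 h for every probe set of FN1 and ZEB1, against its mean level over the 20 arrays (filled points are called, bars are 95% intervals, and the dashed line is the 6.11 level). The 4 brighter FN1 probe sets lie from -0.63 to -0.57 at 3 h, and its 2 dim ones at 0.03 and 0.04.

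Promoter windows of 250 bases before to 50 after an annotated start site, from RefSeq on GRCh38.p14, were matched for 4 of the 7 genes, ZEB1, ZEB2, VIM and FN1. Those of the 2 structural genes that were above background and called are printed 5′ to 3′, with matches to an E-box (CANNTG) or a cyclic AMP response element (TGACGTCA) in capitals. The FN1 window is chr2:215436019-215436318 on the minus strand and the VIM window is chr10:17227991-17228290 on the plus strand.
FN1: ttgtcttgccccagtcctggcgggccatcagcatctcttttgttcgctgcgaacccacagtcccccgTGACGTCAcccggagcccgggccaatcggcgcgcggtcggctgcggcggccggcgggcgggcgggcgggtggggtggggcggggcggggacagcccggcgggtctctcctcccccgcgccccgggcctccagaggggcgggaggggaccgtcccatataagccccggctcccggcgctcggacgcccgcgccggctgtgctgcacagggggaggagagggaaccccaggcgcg
VIM: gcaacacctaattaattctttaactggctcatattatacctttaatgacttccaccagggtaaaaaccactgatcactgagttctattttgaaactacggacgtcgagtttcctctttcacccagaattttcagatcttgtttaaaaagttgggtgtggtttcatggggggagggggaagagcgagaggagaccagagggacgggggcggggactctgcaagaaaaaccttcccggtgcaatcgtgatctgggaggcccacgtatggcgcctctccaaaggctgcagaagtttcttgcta

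Motifs were sought on both strands: the E-box CANNTG, its SNAI and ZEB form CACCTG (which is contained in the E-box), the GGTCA core of the estrogen response element, the cyclic AMP response element TGACGTCA and the AP-1 site TGANTCA. The FN1 window held 1 match, to TGACGTCA at position -183 from the start site, and the VIM window held 0 matches. Of 35116 windows of this length, 68.7% held CANNTG, 20.6% CACCTG, 37.4% GGTCA, 1.85% TGACGTCA and 7.71% TGANTCA. A match describes these letters only, and a window with none says nothing of the sequence outside it.

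**Figure D4:**
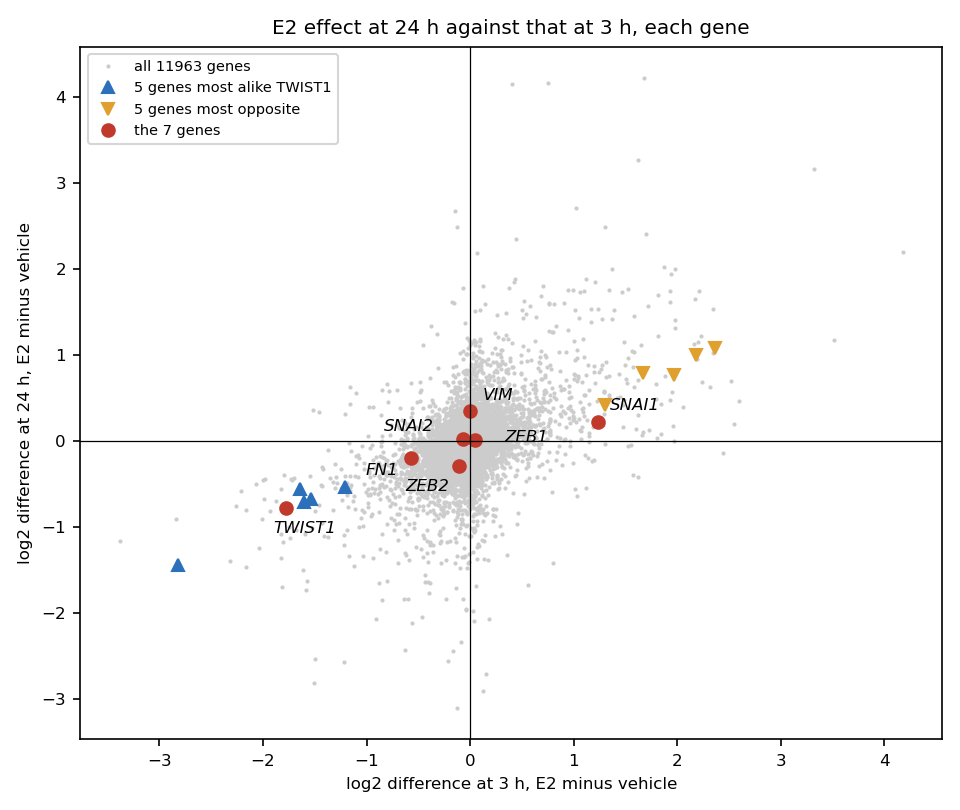
E2 minus vehicle on the log2 scale at 24 h against that at 3 h, for the 7 genes (circles), the 5 genes most like TWIST1 and the 5 most opposite (triangles), over all genes (grey). TWIST1 at -1.78 and -0.78 and FN1 at -0.57 and -0.205 lie below 0 at both times, while VIM lies near 0 at 3 h and at 0.35 at 24 h.

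Over the 20 arrays, TWIST1 followed most closely the genes GTF2E1 (Pearson r = 0.998), ARID5B (0.997), TLE1 (0.993), RGS2 (0.993) and BCAR3 (0.992), among 8971 genes above the near-background level. GTF2E1 is a subunit of a general transcription factor, TLE1 a corepressor of the Groucho family and RGS2 a regulator of G protein signalling. SPRY4 (-0.995), WWC1 (-0.994), CACNA1I (-0.992), KDM4B (-0.991) and SYNPO2L (-0.99) ran most nearly opposite to it. These are descriptions over arrays that share the 5 groups, so any gene whose group means are spaced in a similar way gives a high value. The E2 differences of the first 5 were GTF2E1 -1.54 at 3 h and -0.68 at 24 h, ARID5B -1.60 and -0.71, TLE1 -1.64 and -0.55, RGS2 -2.82 and -1.44, and BCAR3 -1.21 and -0.53. SPRY4 rose by 2.37 at 3 h and 1.08 at 24 h. Over the same arrays, SNAI1 had r = -0.92 with TWIST1, FN1 0.85, ZEB2 0.44 and VIM -0.11.

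Genes known to act with or around TWIST1 were read as lists, described by counts and medians. The counts of every list below stand against 13.5% of all genes called higher and 17.6% lower at 3 h. At 24 h those shares were 21.5% and 24.2%. The E proteins that pair with TWIST1 and the ID genes that inhibit such pairing, with TWIST2 and HAND genes, had 9 measured members. At 3 h, 0 rose and 5 fell, and at 24 h 1 rose and 3 fell, against the shares of all genes given above; the medians were -0.17 and -0.079, against 2e-04 and 0.017 for all genes. ID2 fell by 1.5 ± 0.04 at 3 h and by 0.81 ± 0.04 at 24 h. ID3 fell by 1.73 ± 0.07 at 3 h and by 0.44 ± 0.07 at 24 h, to below the near-background level at both times. Its mean was 6.019 with E2 and 7.745 with vehicle at 3 h, and 5.869 with E2 and 6.308 with vehicle at 24 h. The smaller ID3 difference at 24 h thus lay in a lower vehicle mean, and the E2 mean did not rise. ID1 fell by 0.89 ± 0.10 at 3 h, to below the near-background level. TCF12, an E protein, fell by 0.11 ± 0.03 at 24 h.

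Other transcription factors linked to the transition had 13 measured members, 4 of them near background. None rose and 3 fell at 3 h (median 0.035), and 2 rose and 3 fell at 24 h (median 0.047). With only the compared groups fitted, 1 rose at 3 h. SOX9 fell by 0.87 ± 0.07 at 3 h and by 1.26 ± 0.07 at 24 h. SOX4 fell by 0.47 ± 0.04 at 3 h, and NFIB by 0.40 ± 0.04 at 3 h and 0.42 ± 0.04 at 24 h. TEAD1, a partner of the YAP coactivator, rose by 0.93 ± 0.08 at 24 h.

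Of 10 corepressors that SNAI and ZEB factors recruit, 2 rose and 2 fell at 3 h and 2 rose and 3 fell at 24 h, with medians of -0.021 and -0.029. The counts at 3 h were not stable: 1 fell with a replicate block, with arrays centred on their medians or with array weights, and 1 rose and 1 fell with only the compared groups fitted. EZH2, the histone methyltransferase of polycomb complex PRC2, rose by 0.62 ± 0.04 at 24 h, and the chromatin remodeller SMARCA4 by 0.22 ± 0.03. HDAC1, a histone deacetylase, fell by 0.22 ± 0.03 at 24 h. At 3 h CTBP2 rose by 0.12 ± 0.03, SUZ12 by 0.10 ± 0.03, and SIRT1 fell by 0.19 ± 0.05.

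Genes whose products modify or degrade SNAI1, SNAI2 or TWIST1 protein had 9 measured members. With E2 at 3 h 1 rose and 7 fell (median -0.18), and at 24 h 2 rose and 5 fell (median -0.097). Of all genes, 13.5% were called higher and 17.6% lower at 3 h, and 21.5% higher and 24.2% lower at 24 h. MDM2, a ubiquitin ligase best known for p53, rose by 1.87 ± 0.06 at 3 h and by 2.02 ± 0.06 at 24 h. FBXL14, an F-box protein reported to bind SNAI1, fell by 0.52 ± 0.04 at 3 h and 0.28 ± 0.04 at 24 h, and CSNK1A1, a casein kinase, by 0.34 ± 0.03 at 3 h and 0.32 ± 0.03 at 24 h. Protein was not measured.

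Mesenchymal cytoskeleton, cadherin and matrix genes had 35 measured members, and 20 of them were near background. At 3 h 3 rose and 2 fell (median 0.013), and at 24 h 8 rose and 6 fell (median 0.067). At 3 h 1 fell with only the compared groups fitted or without the dimmest 25% of genes, and without those genes 4 rose at 24 h. TAGLN, an actin-binding protein of smooth muscle, rose by 0.88 ± 0.07 at 3 h, from a vehicle mean below the 6.11 level. TPM1, a tropomyosin, rose by 0.45 ± 0.04 at 3 h and 0.26 ± 0.04 at 24 h, and CCN1, a matricellular protein, fell by 0.51 ± 0.05 at 3 h. SPARC, a matricellular protein well above background, fell by 1.11 ± 0.03 at 24 h. COL5A2, a fibrillar collagen, fell by 0.33 ± 0.06 at 24 h, to below that level. The list thus held genes moving in both directions at both times.

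Integrins and receptors of mesenchymal cells had 16 measured members. With E2 at 3 h, 2 rose and 3 fell (median -0.041), and at 24 h 3 rose and 5 fell (median 0.048). The counts at 3 h were near the shares of all genes, 13.5% higher and 17.6% lower. ITGA2, the collagen-binding integrin subunit, fell by 0.46 ± 0.03 at 3 h and 0.56 ± 0.03 at 24 h. SDC1, a syndecan of epithelial cells, rose by 0.26 ± 0.03 at 3 h and fell by 0.44 ± 0.03 at 24 h. FGFR1 fell by 0.31 ± 0.04 at 3 h, and SDC4 by 0.67 ± 0.03 at 24 h.

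Epithelial genes that these factors are known to repress had 34 measured members. At 3 h 8 rose and 11 fell (median -0.071), and at 24 h 10 rose and 14 fell (median -0.053). CDH1 rose by 0.75 ± 0.05 at 3 h and 0.17 ± 0.05 at 24 h. ELF3, an epithelial transcription factor, rose by 1.15 ± 0.04 at 3 h. OCLN and CLDN4, tight junction genes, fell by 0.92 ± 0.04 and 0.78 ± 0.04 at 3 h, and CLDN4 by 0.69 ± 0.04 at 24 h. The keratin gene KRT19 rose by 0.66 ± 0.04 at 24 h, and SPINT1, a protease inhibitor, fell by 0.79 ± 0.04.

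The TGF-beta ligands, receptors and SMADs had 19 measured members. At 3 h 3 rose and 9 fell (median -0.10), and at 24 h 2 rose and 8 fell (median -0.12). SMAD7, an inhibitor of the pathway, rose by 2.52 ± 0.05 at 3 h. TGFBR2, the signalling receptor, fell by 2.00 ± 0.06 at 3 h, and TGIF1, a SMAD corepressor, fell by 1.18 ± 0.03 at 3 h and 0.77 ± 0.03 at 24 h. BAMBI, a pseudoreceptor that inhibits the pathway, fell by 2.53 ± 0.07 at 24 h, while the coreceptor TGFBR3 rose by 1.16 ± 0.07. The inhibitors SMAD7 and BAMBI were called in opposite directions at both times, since SMAD7 also rose by 0.70 at 24 h and BAMBI also fell by 1.49 at 3 h.

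Other signals known to induce the transition had 16 measured members. At 3 h 4 rose and 8 fell (median -0.12), and at 24 h 6 rose and 7 fell (median -0.029). HES1, a NOTCH target, rose by 1.12 ± 0.05 at 3 h and HEY1, another, fell by 0.81 ± 0.05. FGFR2 rose by 0.95 ± 0.06 at 3 h and by 1.29 ± 0.06 at 24 h. At 24 h the HGF receptor gene MET rose by 1.24 ± 0.04 and HIF1A by 0.48 ± 0.03.

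**Figure D5:**
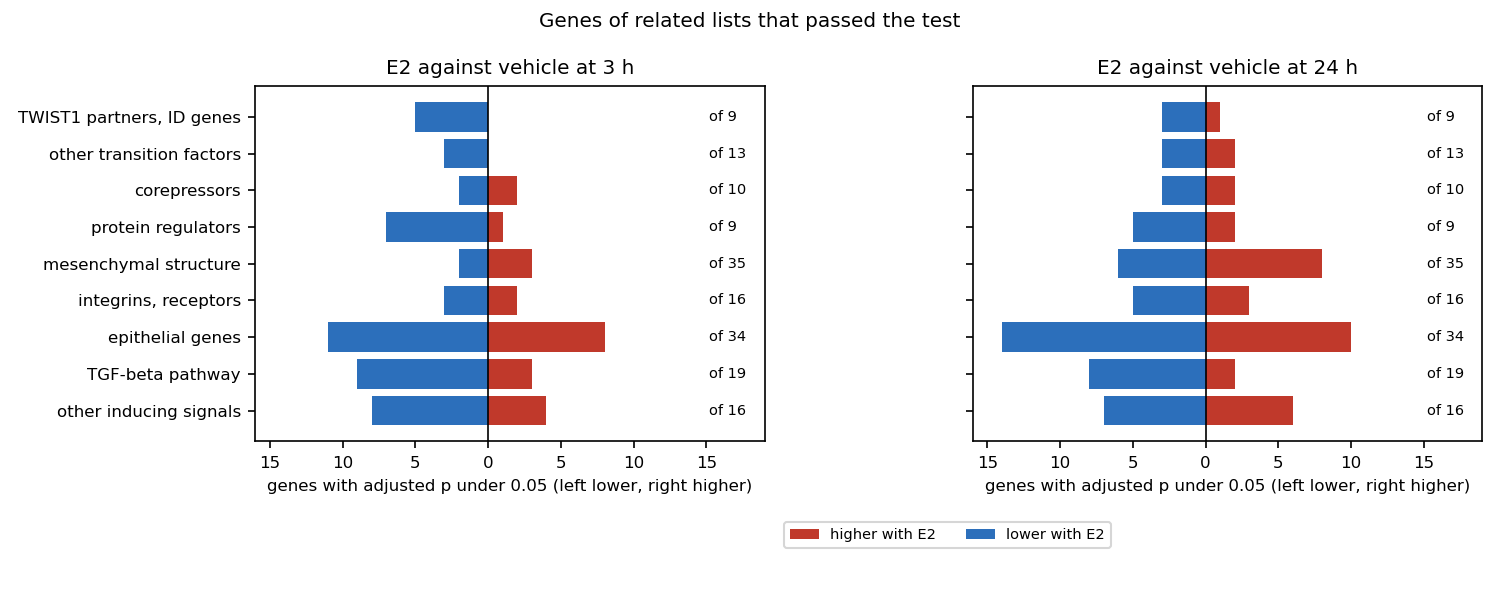
Number of genes of each related list that passed the test (limma, adjusted p under 0.05), lower to the left of 0 and higher to the right, with the number measured at the right edge. Of 35 mesenchymal structure genes, 3 were higher and 2 lower at 3 h, and of 34 epithelial genes 8 were higher and 11 lower. Of all genes, 13.5% were higher and 17.6% lower at 3 h.

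GATA3, a luminal factor, fell by 2.07 ± 0.04 at 3 h and fell by 0.51 ± 0.04 at 24 h, and FOXA1, another, fell by 1.30 ± 0.07 at 3 h. The estrogen receptor gene ESR1 fell by 0.29 ± 0.03 at 3 h and 0.17 ± 0.03 at 24 h. Of 10 luminal markers, 3 rose and 5 fell at 3 h and 5 rose and 4 fell at 24 h. KRT19 was among those that rose at 3 h, by 0.59 ± 0.04. AGR2 rose by 1.60 ± 0.03 and KRT8 by 0.49 ± 0.03 at 24 h. Of 10 fibroblast markers, 0 were called at 3 h, and at 24 h 3 rose and 2 fell. SPARC, given above, fell by 1.11 ± 0.03, and POSTN rose by 0.25 ± 0.07 near background. COL1A1 rose by 0.15 ± 0.05 at 24 h, a call that was lost as a mean of its probe sets (-0.0125, adjusted p = 0.82). Of 7 endothelial markers, 1 rose and 1 fell at each time: ENG rose by 0.27 ± 0.07 at 3 h and 0.21 ± 0.07 at 24 h, and PECAM1 fell by 0.26 ± 0.08 at 3 h and 0.42 ± 0.08 at 24 h, its E2 means lying below the 6.11 level. Of 5 immune markers, 0 were called at either time. Of 6 myoepithelial markers, 0 rose and 1 fell at 3 h, and 2 rose and 0 fell at 24 h, CNN1 by 0.23 ± 0.08 and KRT5 by 0.19 ± 0.07, both near background. The oxytocin receptor gene OXTR, in the myoepithelial list, fell by 0.67 ± 0.10 at 3 h, to below the near-background level. Its mean with vehicle at 3 h, 6.35, was the highest of the 5 groups. With E2 at 3 h it was 5.68, against 5.82 over the 20 arrays.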

How the data were processed

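RNA of 20 SUM44 samples was hybridised to Affymetrix arrays. The authors deposited a log2 value for each probe set, made with RMA and affy per the submitters' processing notes; versions are not given in the sources used here. RMA equalises the arrays' distributions, so a change in total RNA per cell would not appear. Of 22277 probe sets, 62 controls, 1043 with several symbols and 2108 with none were left out. Each of 11963 genes was taken on its probe set of highest mean. The fit over all 20 arrays used lmFit and eBayes of limma 3.58.1 (R 4.3.3; a mean per group, no block, two-sided), with Benjamini-Hochberg adjustment over all genes at 0.05. The number of arrays limits precision.

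The members and lists were chosen with earlier results of these data known. The genes named are the 7 members, the 3 of smallest p in each list and E2 comparison (of the cell type markers, only some are named), the 5 most and 5 least correlated with TWIST1, and GATA3, ESR1 and CDH1. Alternatives were other groups in the fit, normalization, no dim genes, other probe sets, a replicate block, array weights, another variance prior and leaving out single arrays. Same-lettered arrays of different groups had correlated deviations of -0.25 to 0.37 (median 0.0069), so the letters were not taken as pairs.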

Additional observations from a re-analysis of the deposited data

Results flagged for a closer look

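VIM with E2 at 3 h had 1 array, A, at 6.76, apart from the other three by 0.858 of the group's range. Of 35 groups of 4 arrays checked for the 7 genes, this was the only 1, and chance alone marks about 1 in 20.

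The E2 effect differed between times (effect at 24 h minus effect at 3 h, log2, limma adjusted p under 0.05) for 4 of the 7 genes: TWIST1 1.00, SNAI1 -1.02, VIM 0.35 and FN1 0.36. Over all genes such a difference was called positive for 16.5% and negative for 17.8%, so a call here is common. A positive value means a smaller decrease or a larger increase at 24 h, or a decrease at 3 h that became an increase. AGR2, for example, differed by -0.15 at 3 h and by 1.60 at 24 h. Either the E2 or the vehicle group can have moved between the times. Among the inhibitors of TWIST1 pairing the difference between times was 0.69 for ID2, 1.29 for ID3 and 0.63 for ID1. Among the other factors it was 0.32 for SOX4, -0.39 for SOX9 and 0.78 for TEAD1. For corepressors and protein regulators it was -0.18 for CTBP2, 0.71 for EZH2, 0.22 for SMARCA4, -0.21 for HDAC1 and 0.24 for FBXL14. In the mesenchymal lists it was -0.47 for TAGLN, -0.19 for TPM1, 0.38 for CCN1, -1.10 for SPARC, -0.40 for COL5A2, 0.20 for COL1A1, -0.71 for SDC1 and -0.81 for SDC4. Epithelial and luminal genes gave -0.58 for CDH1, -1.17 for ELF3, 0.36 for OCLN, -0.50 for SPINT1, 1.56 for GATA3, 0.12 for ESR1, 1.04 for FOXA1, 1.75 for AGR2 and 0.38 for KRT8, and OXTR gave 0.69. In the TGF-beta list it was -1.82 for SMAD7, 0.41 for TGIF1, 1.55 for TGFBR2, -1.04 for BAMBI and 0.53 for TGFBR3. In the other signals it was -1.67 for HES1, 0.57 for HEY1, 0.35 for FGFR2, 1.55 for MET and 0.20 for HIF1A. Of the genes most like TWIST1, GTF2E1 gave 0.86, ARID5B 0.89, TLE1 1.09, RGS2 1.38 and BCAR3 0.68, and of those opposite to it SPRY4 gave -1.29, WWC1 -1.21, CACNA1I -1.19, KDM4B -0.88 and SYNPO2L -0.89.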

How the results depend on the processing

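TWIST1 stayed between -1.80 and -1.75 at 3 h and between -0.80 and -0.74 at 24 h over 17 alternatives each, SNAI1 at 3 h between 1.16 and 1.39, FN1 at 3 h between -0.62 and -0.38, and VIM at 24 h between 0.33 and 0.40, all past the threshold. Genes called ran from 3368 to 3909 and 5008 to 5527 for E2 at 3 h and 24 h, 3897 to 4299 for their difference, and 1979 to 2872 and 1111 to 1852 for vehicle against baseline at 3 h and 24 h. With a replicate block the counts were 3665, 5479, 4078, 2332 and 1410, against 3720, 5469, 4100, 2393 and 1426 without it, and no call on a member changed. Of 636 values of members under other settings or single arrays left out, 7 changed side or direction: SNAI1 and ZEB2 at 24 h with only those groups fitted, ZEB1 at 24 h (0.16) and between times (0.26) as a mean of probe sets, ZEB2 at 24 h without vehicle B or D, and ZEB2 in vehicle at 24 h against baseline without vehicle C (0.31, adjusted p = 0.031). The second ZEB1 probe set gave 0.59 between times. The brighter of the 2 dim FN1 probe sets gave 0.0312 at 3 h, 0.13 at 24 h and -0.0846 in vehicle at 3 h against baseline, and the dimmer gave 0.0359 at 3 h, -0.103 between times and -0.085 in vehicle at 3 h against baseline. As a mean of probe sets COL1A1 gave -0.0125 at 24 h and -0.108 between times. Of 3559 values of other named genes, 41 lost and 28 gained the call. In 9 of 324 list counts, added after the data were seen, the count moved by over 1.5 times, as given beside the lists. The cause of these changes was not tested.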
